A study of Mus musculus with 5 samples.

Results

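Endothelial identity genes are the genes by which the cells lining blood and lymph vessels are told from other cells of the heart. The list held 37 such genes, drawn up by known role while earlier results of these arrays, Tmem100 among them, were known. A gene was measured through a probe set whose only gene symbol in the platform annotation was that gene. Of these, 36 were found with 1 probe set each, out of 19938 genes on the arrays, and Ly6a is not analysed here.

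RNA of whole tissue from 5 mouse heart grafts was hybridised to Affymetrix Mouse Gene 1.0 ST arrays. Donors and recipients were C57BL/6 mice, given as 8 weeks old, so the grafts were syngeneic, and each donor heart was joined to vessels in the recipient's abdomen. The I/R grafts 2553, 2555 and 2557 (n = 3) had been stored for 18 h in cold UW solution at 4 °C, whereas the non-I/R grafts 2554 and 2556 (n = 2) were implanted at once. Harvest was 24 h after transplantation by the labels and day 2 by the study's text. A protocol field of the labels describes the cold storage for all 5 grafts, so groups were read from the other labels. Signals are log2 values after RMA, on which a difference of 1 is 2-fold, and signals of different genes cannot be set against each other. In bulk tissue, fewer endothelial cells and less RNA per endothelial cell cannot be told apart, and neither can RNA of donor and host cells. An exact two-sided permutation test of 3 grafts against 2 cannot go below 0.1. The labels do not describe the animals behind the grafts, and p-values here measure only the spread among 5 samples.

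Endothelial cells share a gene program that ETS factors such as ERG and FLI1 and SOXF factors such as SOX7, SOX17 and SOX18 maintain. Programs of arteries, veins, lymphatics and capillaries lie on top of it, and capillaries make up most of the endothelium of heart muscle. Heart capillaries pass fatty acids, water and carbon dioxide between blood and muscle, with proteins such as GPIHBP1, AQP1 and CAR4. BMP9 and BMP10 act on endothelial cells through the receptor ALK1 and its partner endoglin, and TMEM100 is a membrane protein that this pathway induces.

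Promoter sequence is shown for the 5 members past the threshold of the comparison that were among the promoter windows at hand (RefSeq, GRCm38.p6). Matches to GGAAG can thus be read beside the values. Each holds the 250 bases before a gene start, 5′ to 3′, and capitals mark GGAAG or its complement CTTCC, a form of the core that ETS factors bind. For Erg, with several starts, the farthest upstream was taken. The first 3 genes were higher and the last 2 lower in the I/R grafts.
Erg (chr16:95586594-95586843, minus strand): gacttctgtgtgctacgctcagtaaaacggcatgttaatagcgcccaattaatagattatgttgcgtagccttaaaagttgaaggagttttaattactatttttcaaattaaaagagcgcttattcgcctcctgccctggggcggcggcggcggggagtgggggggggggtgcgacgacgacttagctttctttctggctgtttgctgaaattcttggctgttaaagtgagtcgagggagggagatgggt
Efnb2 (chr8:8661243-8661492, minus strand): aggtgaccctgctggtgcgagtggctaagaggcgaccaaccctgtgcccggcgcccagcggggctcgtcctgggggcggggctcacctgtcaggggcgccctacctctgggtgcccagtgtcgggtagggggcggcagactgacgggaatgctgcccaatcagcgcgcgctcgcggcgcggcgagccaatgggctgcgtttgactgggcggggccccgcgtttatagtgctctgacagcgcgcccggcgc
Pdpn (chr4:143299565-143299814, minus strand): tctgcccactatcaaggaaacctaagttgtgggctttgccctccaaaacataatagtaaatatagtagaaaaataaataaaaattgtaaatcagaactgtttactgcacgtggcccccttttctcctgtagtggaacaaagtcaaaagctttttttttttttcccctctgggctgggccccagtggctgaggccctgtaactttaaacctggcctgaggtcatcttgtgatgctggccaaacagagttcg
Aqp1 (chr6:55336049-55336298, plus strand): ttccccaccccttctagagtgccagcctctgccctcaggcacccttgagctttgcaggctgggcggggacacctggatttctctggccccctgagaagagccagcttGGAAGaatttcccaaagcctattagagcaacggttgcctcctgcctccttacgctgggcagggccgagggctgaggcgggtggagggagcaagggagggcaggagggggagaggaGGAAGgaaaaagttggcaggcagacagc
Clec14a (chr12:58269259-58269508, minus strand): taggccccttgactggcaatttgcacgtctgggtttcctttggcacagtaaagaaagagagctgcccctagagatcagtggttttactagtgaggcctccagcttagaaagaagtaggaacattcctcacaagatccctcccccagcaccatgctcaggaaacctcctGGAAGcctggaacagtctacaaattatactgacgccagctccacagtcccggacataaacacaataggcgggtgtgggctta
GGAAG occurred 2 times in the Aqp1 window, 1 time in the Clec14a window and in none of the other windows shown, but 1 time in each of the 2 further windows of Erg. The shorter GGAA was not marked or counted, and it stands in the Efnb2 and Pdpn windows too. The windows shown therefore do not tell the higher from the lower genes by ETS cores. Windows were found for 20 members, and 19 of their 27 windows (70.4%) held GGAAG on either strand, against 64.1% of all 32851 windows of this length. ACAAT, a core bound by SOX factors, was in 25.9% of the members' windows and in 27.7% of all windows, also on either strand. A match is a match of letters and no more.

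Grafts 2555 (I/R) and 2554 (non-I/R) stood apart from the rest. Of the 36 members, 12 had their highest signal in 2555, and 14 had their lowest and 9 their highest in 2554. The same shares over all probe sets were not counted. Platelet markers had a mean deviation from their 5-graft mean of 0.97 (log2) in 2555 and of -0.52 to -0.12 in the others. Atrial markers had 0.71 in 2555 and 1.41 in 2554, against -1.28 in 2556, -0.82 in 2553 and -0.018 in 2557. Array medians lay between 6.58 and 6.65. Array weights, which are lower for arrays that vary more, were 0.669, 0.628 and 2.22 in 2553, 2555 and 2557. They were 1.03 in both 2554 and 2556. The 12 cardiomyocyte markers had mean signals of 11.1 to 13.6. Calls of members that were lost without 2554 or 2555 are given with and without these grafts.

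Across the list the genes moved both ways, and the list as a whole stayed near 0. Erg, Ets1 and Sox7 among the transcription factors were higher in I/R grafts, as were Cd93, Efnb2 and Pdpn, while Tmem100, Aqp1 and Clec14a were lower. The median log2 fold change over the 36 members was 0.057, with a range of -2.0 to 0.79, against -0.0079 over the 21789 probe sets tested, and it was 0.046 to 0.084 with any 1 graft left out. In 27 members the difference was under 0.5. By limma at an unadjusted p under 0.05, the call used below, 6 members (16.7%) were higher and 3 (8.33%) were lower, where 7.64% and 7.35% of all probe sets were. The share of lower members lay near that of the arrays, and neither share was tested against it. No member passed an adjusted p of 0.05 (range 0.282 to 0.953), nor did any of the 21789 probe sets (0%), of which 3265 passed unadjusted. The methods' t-test passed 2 probe sets after adjustment and 2014 before it. With at least 2-fold required as well, 1 member was lower and 0 were higher, against 1.0% and 0.496% of all probe sets. All I/R grafts lay above both non-I/R grafts in 13 members (36.1%) and below both in 6 (16.7%), against 15.8% and 16.2% of all probe sets. The count of higher members varied with the I/R graft left out, at 1 without 2557, 4 without 2555 and 8 without 2553. Of all probe sets 1024, 1404 and 1423 were higher in those fits, against 1664 with all 5 grafts. The count of higher members also fell without 2554 and without 2556, fits that leave 1 graft in the non-I/R group. Over all probe sets the count of higher ones fell without 2554 but rose without 2556. The part of the smaller number of grafts in these counts was not tested. The count of lower members was 3 or 4 with any 1 graft left out, and 0 without 2554 and 2555 together. In that last fit Sox7 was the 1 of the 9 called members that stayed called.

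**Figure D1:**
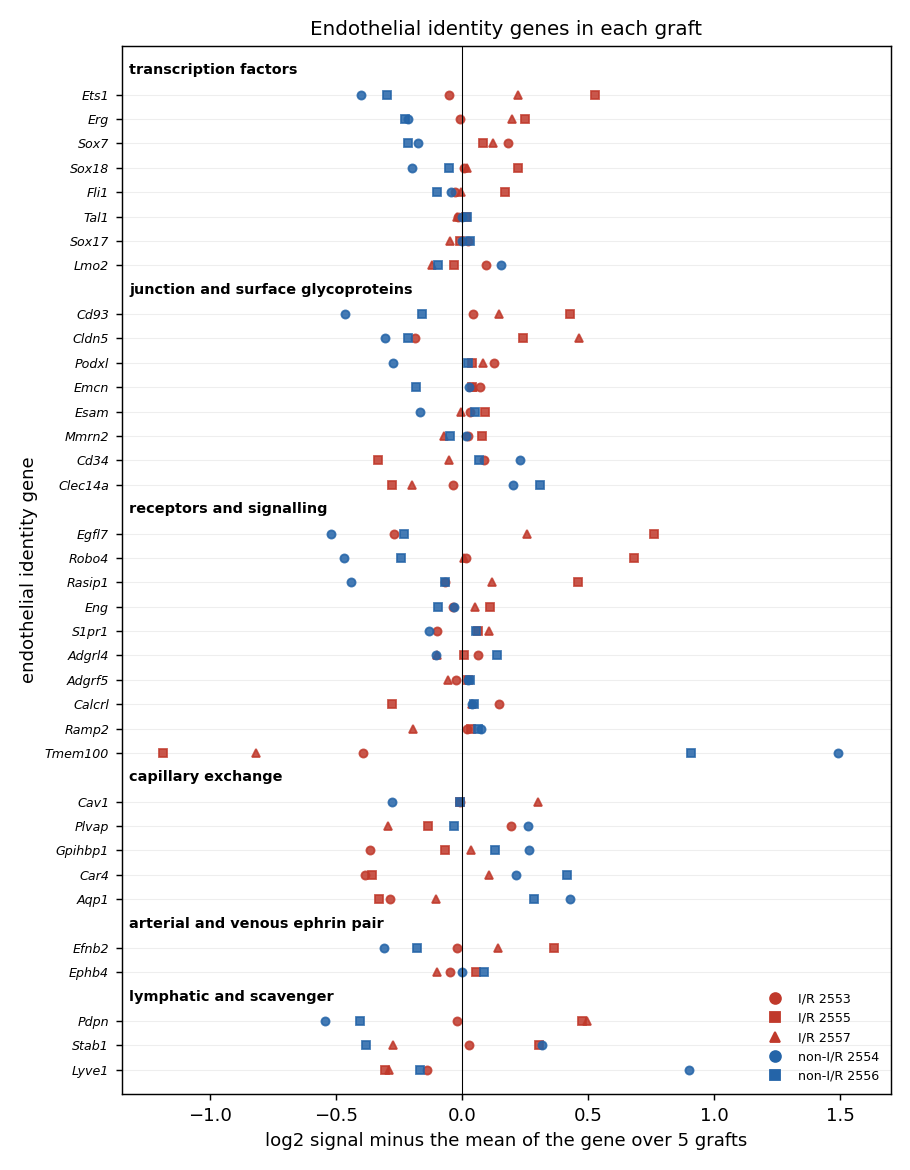
Log2 signal of 36 endothelial identity genes minus each gene's mean over 5 grafts (x axis), by role and fold change (y axis), red for I/R (n = 3) and blue for non-I/R grafts (n = 2). Tmem100 spreads farthest, with both non-I/R grafts right of 0 and all I/R grafts left of it, while Tal1 and Sox17 lie close to 0 in every graft.

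Erg, Ets1 and Sox7 were the transcription factors called higher in I/R grafts. Of 8 factors, 5 had all I/R grafts above both non-I/R grafts (15.8% of all probe sets did). By call 3 were higher and 0 lower, where 7.64% and 7.35% of all probe sets were. The median log2 fold change was 0.16. Sox7, a SOXF factor of early vessel formation, had log2 signals of 8.34, 8.24 and 8.28 in the I/R grafts (2553, 2555, 2557 in turn), against 7.99 and 7.95 in the non-I/R grafts (2554, then 2556). Grafts of a group lay close together, with a gap between the groups. Its log2 fold change was 0.32 (SE 0.040, unadjusted p = 0.00158, adjusted p = 0.282 by limma), and the call held with any 1 graft left out and without 2554 and 2555 together (unadjusted p = 0.0338).

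Erg, the ETS factor at the centre of endothelial identity, had log2 signals of 8.55, 8.81 and 8.76 in I/R grafts, against 8.35 and 8.34 in non-I/R grafts. There was no overlap, and 2553 was the I/R graft nearest the others. For Erg the log2 fold change was 0.37 (SE 0.091, unadjusted p = 0.0172 by limma). The call was lost without 2554, 2556 or 2557 (unadjusted p = 0.0854, 0.09 and 0.0617). Ets1, an ETS factor of endothelium and lymphocytes, had 8.88, 9.46 and 9.16 in I/R grafts, against 8.54 and 8.64 in non-I/R grafts, also with no overlap and with 2555 highest. Its log2 fold change was 0.58 (SE 0.20, unadjusted p = 0.0433 by limma) and 0.43 without 2555. This call too was lost without 2554, 2556 or 2557 (unadjusted p = 0.182, 0.134 and 0.112). With 2554 and 2555 both left out neither gene was called (unadjusted p = 0.202 for Erg and 0.234 for Ets1).

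The other transcription factors on the member list were not called. On the log2 scale Fli1, the closest relative of Erg, differed by 0.12 (SE 0.076) and Sox18 by 0.21 (SE 0.094), each without overlap of the groups. Sox17 had -0.025, and Tal1 and Lmo2, partners in a complex of blood and endothelial precursors, had -0.018 and -0.047, with overlapping groups. In all 13 measured ETS factors, Erg, Fli1 and Ets1 included, 4 were higher and 0 lower, against 7.64% and 7.35% of all probe sets. Their median was 0.12. The other called factors were Elf4 at 0.60 (SE 0.19) and Etv6 at 0.31 (SE 0.11).

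Surface and junction proteins went in both directions. Cd93, a lectin-like receptor of endothelial and myeloid cells, had log2 signals of 11.18, 11.56 and 11.28 in I/R 2553, 2555 and 2557, while it had 10.67 and 10.97 in the non-I/R grafts (2554, then 2556). With 2555 highest and 2554 lowest, the groups were apart. This gave a log2 fold change of 0.52 (SE 0.17, unadjusted p = 0.0381 by limma) which ran from 0.37 to 0.67 with 1 graft left out. The call was lost in each of those fits, without 2553, 2555 or 2557 (unadjusted p = 0.0528, 0.0692 and 0.0892) and without 2554 or 2556 (0.182 and 0.0557). Clec14a, an endothelial lectin of the same receptor group, had 6.94, 6.69 and 6.77 in I/R grafts, against 7.17 and 7.28 in non-I/R grafts. Both non-I/R grafts were above all of the I/R grafts. Its log2 fold change was -0.43 (SE 0.091, unadjusted p = 0.0105 by limma), and the call was lost without 2556 (unadjusted p = 0.0712) or without 2554 and 2555 together (0.106).

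The remaining surface genes were not called with all 5 grafts. Mmrn2, the matrix protein that both lectins bind, had a log2 fold change of 0.026 (SE 0.058). Cldn5 of tight junctions had 0.43 (SE 0.22), Esam of cell junctions 0.095 (SE 0.081) and the sialomucin genes Podxl, Emcn and Cd34 had 0.21, 0.13 and -0.25. The groups did not overlap for Cldn5, Podxl and Emcn, and overlapped for the other genes of this paragraph. Leaving out 1 graft gave a call for Cldn5 without 2553 (0.61, unadjusted p = 0.0141 by limma), for Emcn without 2554 (0.23, 0.00334), and for Podxl (0.36, 0.00768) and Esam (0.20, 0.0354) without 2556. Emcn was also called without 2554 and 2555 together (0.0206). With 1 graft left out Podxl ran from 0.058 to 0.36 and Emcn from 0.024 to 0.23.

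Tmem100 differed most of all members. Its log2 signals were 6.84, 6.05 and 6.42 in the I/R grafts (2553, 2555, 2557 in turn), against 8.73 and 8.14 in the non-I/R grafts (2554, then 2556). Every I/R graft was more than 1 unit below both non-I/R grafts. The log2 fold change was -2.0005 (SE 0.33, unadjusted p = 0.00416, adjusted p = 0.282 by limma), about 4.0-fold, with an exact permutation p of 0.1, the smallest possible here. It ran from -2.29 without 2556 to -1.71 without 2554, and the call held with any 1 graft left out. Without 2554 and 2555 together it was -1.51 and not called (unadjusted p = 0.0683).

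Other genes of BMP9 and BMP10 signalling did not share that size of difference. Of 17 measured, Tmem100 among them, 1 was higher and 2 were lower, where 7.64% and 7.35% of all probe sets were. The median log2 fold change of the list was -0.0016. Eng, which encodes endoglin, had log2 signals of 11.22, 11.37 and 11.31 in I/R grafts, against 11.23 and 11.16 in non-I/R grafts. The groups overlapped, and the log2 fold change of 0.11 (SE 0.055) was not called, except without 2553 (0.14, unadjusted p = 0.0439 by limma). Acvrl1, the gene of ALK1, had 0.012 (SE 0.11). Bmpr2, the type II receptor, was lower at -0.36 (SE 0.026, unadjusted p = 0.000206 by limma), and the inhibitor Smad7 was higher at 0.59 (SE 0.16, unadjusted p = 0.0217 by limma), a call that was lost without 2554, 2555, 2556 or 2557 (0.105, 0.0658, 0.102 and 0.0698). The target genes Id1 (0.17, SE 0.15) and Id3 (-0.0016, SE 0.086) were not called. Nor were Id2 (0.16, SE 0.22), Smad6 (-0.45, SE 0.22), Hey1 (-0.23, SE 0.12) and Hey2 (-0.76, SE 0.39) of this list. For Hey2 all I/R grafts lay below both non-I/R grafts. Bmp10, a ligand gene of the atria, had signals of 4.80, 4.79 and 5.38 in I/R grafts, against 7.29 and 4.80 in non-I/R grafts, and so was high in 2554 alone. The part of atrial tissue or of Bmp10 in the Tmem100 difference was not tested.

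**Figure D2:**
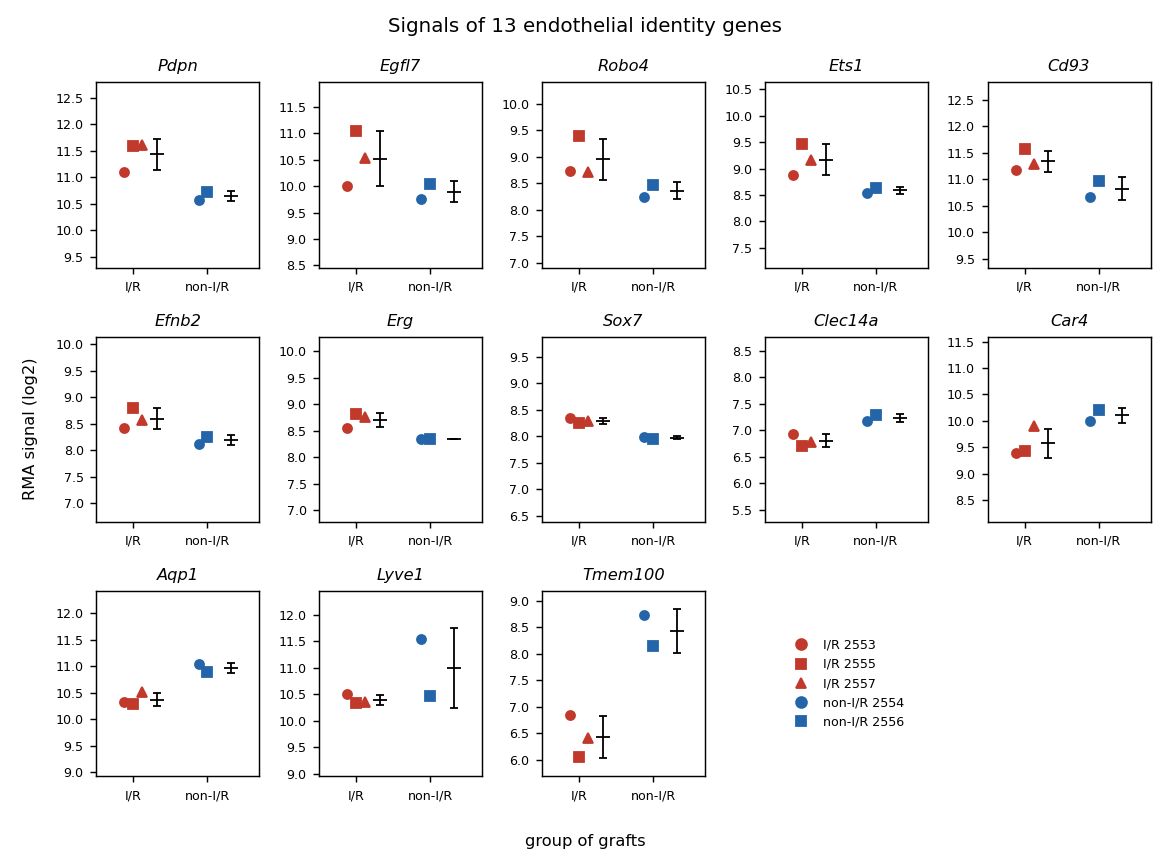
RMA signals (log2, y axis, each panel spanning the same number of units) of 13 endothelial identity genes by group (x axis), red for I/R (n = 3) and blue for non-I/R grafts (n = 2), with black lines for mean ± SD. The groups are apart in most panels, farthest in Tmem100, and the Lyve1 signal of 11.54 that stands alone is that of non-I/R 2554.

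Further receptors and secreted signals varied with the graft. Egfl7, a secreted vessel protein whose gene hosts the endothelial microRNA miR-126, had log2 signals of 9.998, 11.03 and 10.53 in the I/R grafts (2553, 2555, 2557 in turn), against 9.75 and 10.04 in the non-I/R grafts (2554, then 2556). The groups overlapped, since 2553 lay just below 2556. Its log2 fold change was 0.62 (SE 0.35, unadjusted p = 0.158 by limma) and 0.37 without 2555, and without 2553 it was 0.88 and called (unadjusted p = 0.0478). Robo4, an endothelial receptor linked to vessel stability, had 8.73, 9.40 and 8.72 in I/R grafts, against 8.25 and 8.47 in non-I/R grafts. The groups did not overlap, and 2555 lay well above the rest. Its log2 fold change was 0.59 (SE 0.27, unadjusted p = 0.0946 by limma), while without 2555 it was 0.37 and called (unadjusted p = 0.0403). Rasip1, which vessels need to open a lumen, had 0.42 (SE 0.22) and was not called.

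Several receptors had fold changes within 0.12 of 0 on the log2 scale and none of these was called. S1pr1, the sphingosine 1-phosphate receptor of the vessel barrier, had 0.061. The adhesion receptors Adgrf5 and Adgrl4 had -0.045 and -0.027, and Calcrl and Ramp2, which together form an adrenomedullin receptor, had -0.074 and -0.12.

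Ligands, enzymes and partners of these receptors were read from pathway lists. Of all probe sets 7.64% were called higher and 7.35% lower. Slit2, a ligand of Robo receptors, had log2 signals of 7.13, 6.46 and 5.99 in I/R grafts, against 8.97 and 8.08 in non-I/R grafts, and was lower (log2 fold change -1.9967, SE 0.48, unadjusted p = 0.0158 by limma). It was the 1 called gene of 7 for Slits, Robos and Unc5b, and Unc5b, a netrin receptor that Robo4 binds, had 0.86 (SE 0.37). In the sphingosine 1-phosphate list 2 of 8 genes were higher and 0 lower, with a median of 0.18. These were Sphk1, a kinase that makes the lipid, at 0.97 (SE 0.28) and Sgpl1, the lyase that breaks it down, at 0.44 (SE 0.060). None of 7 adrenomedullin and CGRP genes was called, and the ligand gene Adm had 0.53 (SE 0.37). In the Notch list 2 of 10 were higher and 1 lower, namely the arterial ligand Dll4 at 0.85 (SE 0.13), Nrarp at 0.44 and Hes1 at -0.41. Over the pathway lists and the lymphatic list 18 genes that are no members were called, and the number of such genes measured was not counted. Bmpr2, Cavin3, Cd36, Dll4 and Sgpl1 stayed called with any 1 graft left out. The share of all called probe sets that did so was not counted either. Slit2 was -1.55 and not called without 2554 (unadjusted p = 0.089), nor was it without 2555 (0.0596), and Sphk1 was not called without 2554, 2556 or 2557 (0.119, 0.122 and 0.0824).

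**Figure D3:**
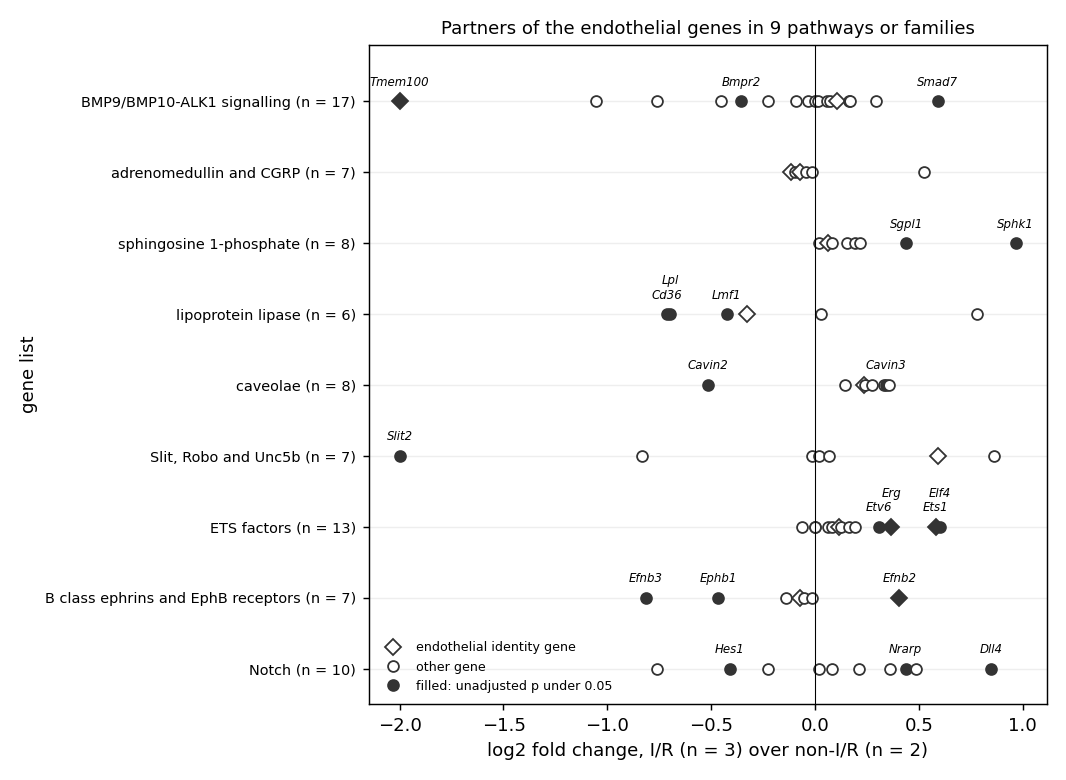
Log2 fold change of I/R (n = 3) over non-I/R grafts (n = 2) (x axis) for genes of 9 pathways or families (y axis, number measured in parentheses), with diamonds for endothelial identity genes and filled, named symbols for an unadjusted p under 0.05. Tmem100 and Slit2 lie farthest left, near -2.0, apart from the other genes of their lists.

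Of the capillary exchange genes Aqp1 was called lower in I/R grafts. Of 5 measured, 4 had lower means, 3 had all I/R grafts below both non-I/R grafts (16.2% of all probe sets did) and 1 was called lower (7.35% of all probe sets were), with a median log2 fold change of -0.33. Cardiomyocyte markers were lower too, 11 of 12 by call, and their part in these genes was not tested. Aqp1, the water channel of capillaries and red cells, had log2 signals of 10.33, 10.28 and 10.51 in the I/R grafts (2553, 2555, 2557 in turn), against 11.04 and 10.90 in the non-I/R grafts (2554, then 2556). No I/R graft reached the non-I/R signals. For Aqp1 the log2 fold change was -0.60 (SE 0.094, unadjusted p = 0.00363, adjusted p = 0.282 by limma), and it ran from -0.67 to -0.53 and stayed called with any 1 graft left out. Without 2554 and 2555 together it was -0.48 and not called (unadjusted p = 0.103). Red cell markers overlapped between the groups, with mean deviations of -0.17, 0.20 and 0.0091 in I/R grafts and 0.064 and -0.10 in non-I/R grafts over 3 genes, and the part of red cells in the Aqp1 signal was not tested.

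Car4, the carbonic anhydrase of the capillary surface, had log2 signals of 9.40, 9.43 and 9.90 in I/R grafts, against 10.003 and 10.21 in non-I/R grafts. The groups did not overlap, but 2557 came close to 2554. The log2 fold change was -0.53 (SE 0.20, unadjusted p = 0.0565 by limma). Cyclic loess, quantile normalization and centring on array medians each gave a call (unadjusted p = 0.0269, 0.0252 and 0.0315), as did leaving out 2557 (0.00642). Array weights (-0.39, unadjusted p = 0.137), the methods' t-test (0.0954) and leaving out 2553, 2555, 2554 or 2556 (0.15, 0.151, 0.123 and 0.238) gave none. Gpihbp1, which anchors lipoprotein lipase, had -0.33 (SE 0.15, called with median-centred arrays at 0.0388). Plvap, of vesicle diaphragms, had -0.19 (SE 0.19) and Cav1, of caveolae, 0.24 (SE 0.15), and neither was called.

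Genes that work with these proteins came from 2 further lists. In the lipoprotein lipase list 3 of 6 genes were lower and 0 higher, where 7.35% and 7.64% of all probe sets were, with a median of -0.38. These were Lpl, the lipase itself, at -0.70 (SE 0.15), the fatty acid transporter Cd36 at -0.71 (SE 0.092) and Lmf1, a maturation factor of the lipase, at -0.42 (SE 0.10). Heart muscle cells also make Lpl and Cd36, 11 of 12 cardiomyocyte markers were lower, and the part of muscle RNA in these genes was not tested. In the caveola list Cavin3 was higher at 0.34 (SE 0.041) and Cavin2 lower at -0.52 (SE 0.17), out of 8 genes with a median of 0.26.

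The ephrin pair of arteries and veins was split. Efnb2, the arterial ligand, had log2 signals of 8.42, 8.80 and 8.58 in the I/R grafts (2553, 2555, 2557 in turn), against 8.13 and 8.26 in the non-I/R grafts (2554, then 2556). Here too 2555 was highest and the groups did not overlap. Efnb2 thus had a log2 fold change of 0.41 (SE 0.14, unadjusted p = 0.0419 by limma). The call was lost without 2555 or 2557 (unadjusted p = 0.050012 and 0.105) and without 2554 or 2556 (0.191 and 0.107). Ephb4, the venous receptor, had -0.073 (SE 0.062) and was not called, and the difference between the pair was not tested. Of 7 B class ephrins and EphB receptors, Efnb2 was the 1 that was higher, and Efnb3 at -0.81 and Ephb1 at -0.47 were lower. Of all probe sets 7.64% were higher and 7.35% lower. Both lower calls were lost without 2553, without 2555 and without 2557. Ephb1 had 2 probe sets, of which the brighter was used. Arterial and venous marker lists had medians of -0.10 and -0.19 over 8 and 5 genes.

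Among the lymphatic and scavenger genes Pdpn was higher. Pdpn, podoplanin of lymphatic endothelium, mesothelium and activated stromal cells, had log2 signals of 11.10, 11.60 and 11.62 in the I/R grafts (2553, 2555, 2557 in turn), against 10.58 and 10.72 in the non-I/R grafts (2554, then 2556). All I/R grafts were higher than both non-I/R grafts. A log2 fold change of 0.79 (SE 0.20, unadjusted p = 0.0179 by limma) was the highest among the members. It ran from 0.70 to 0.96 with 1 graft left out, but was called only without 2553, and not without 2555 or 2557 (unadjusted p = 0.061 and 0.0573) or without 2554 or 2556 (0.105 and 0.0731). Other lymphatic markers gave other values. Prox1, a lymphatic factor that heart muscle cells also express, was lower at -1.03 (SE 0.19, unadjusted p = 0.00658 by limma, 0.0518 without 2554), and the lymphatic receptor Flt4 had 0.23 (SE 0.14). The 6 mesothelial markers besides Pdpn, such as Msln at -0.11 and Upk3b at -0.072, had overlapping groups. All 6 had values tied between arrays, and their lowest mean signal was 5.48, below the array medians of 6.58 to 6.65.

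Lyve1, a hyaluronan receptor of lymphatics and resident macrophages, had log2 signals of 10.50, 10.33 and 10.35 in I/R grafts, against 11.54 and 10.47 in non-I/R grafts. It was high in 2554 alone. The log2 fold change was -0.61 (SE 0.36, unadjusted p = 0.167 by limma), -0.076 without 2554, and -1.15 and called without 2556 (unadjusted p = 0.00229). Macrophage markers were likewise highest in 2554, with a mean deviation of 0.46 over 10 genes, against -0.34 to 0.15 in the other grafts, and their part in the Lyve1 signal was not tested. Stab1, a scavenger receptor of vessels and macrophages, had 0.052 (SE 0.30) and its highest signals in 2555 (10.36) and 2554 (10.38).

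Other pan-endothelial genes were level between the groups as a list. Of 17 measured, 0 were called in either direction, where 7.64% of all probe sets were higher and 7.35% lower. The median log2 fold change was 0.046, with a range of -0.55 to 0.41. All I/R grafts lay above both non-I/R grafts in 1 gene and below both in 3, against 15.8% and 16.2% of all probe sets. Pecam1 had 0.12 (SE 0.15), the junction cadherin Cdh5 0.13 (SE 0.20) and the VEGF receptors Kdr and Flt1 0.31 (SE 0.15) and -0.10 (SE 0.071). Mean deviations of this list were -0.080, 0.082 and 0.0066 in I/R grafts and 0.023 and -0.031 in non-I/R grafts. Those of the 36 members were -0.037, 0.062 and 0.0063 in I/R grafts and -0.011 and -0.020 in non-I/R grafts, so the groups overlapped in both lists.

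Among the cell type lists, the mean deviations of neutrophil and cardiomyocyte markers set the groups apart, and those of the other lists overlapped. By call, 7.64% of all probe sets were higher and 7.35% lower. Of 10 neutrophil markers 5 were higher and 1, Lcn2, was lower, with mean deviations of -0.044, 0.59 and 0.27 in the I/R grafts (2553, 2555, 2557 in turn), against -0.48 and -0.34 in the non-I/R grafts (2554, then 2556). The order of the 5 grafts by these markers was also that of Ets1, Sox18, Cd93, Rasip1 and Efnb2, 5 of the 36 members. This was looked for after the values were seen, and the share of all probe sets with that order was not counted. Cd93 and Ets1 are also made by blood cells, and the part of neutrophils or platelets in these members was not tested. Cardiomyocyte markers had -0.29, -0.37 and -0.099 in I/R grafts, against 0.46 and 0.31 in non-I/R grafts, and all 12 had lower means. Since RMA brings the arrays to a common scale, signals are relative to the rest of the tissue, and the part of muscle RNA in the higher members was not tested.

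**Figure D4:**
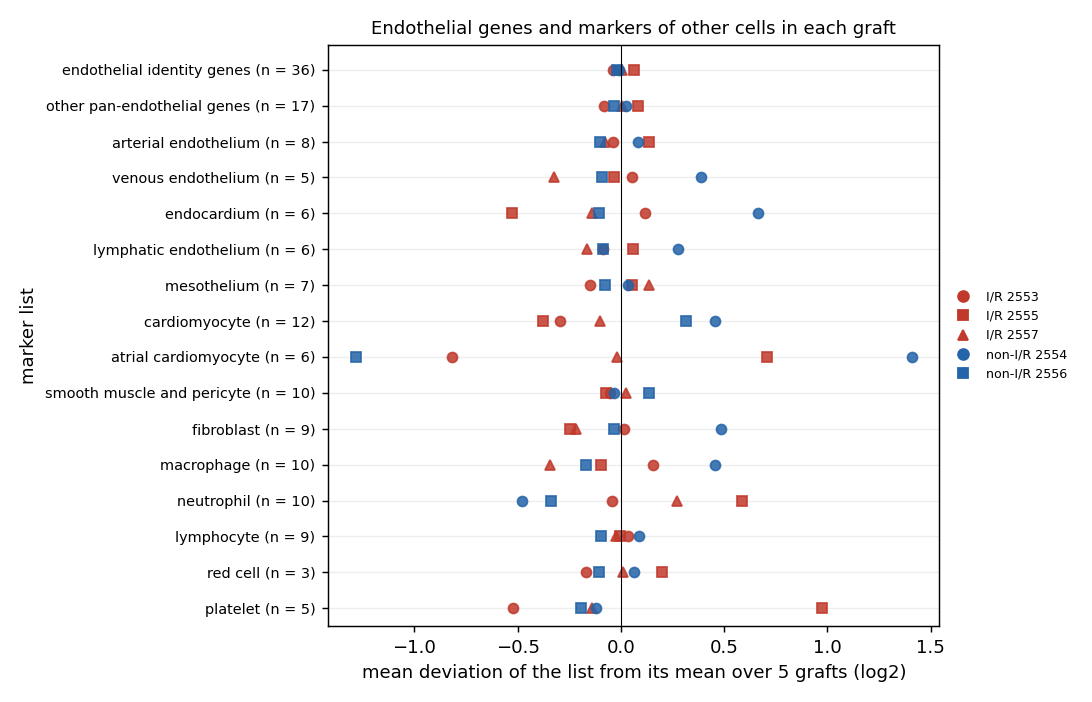
Mean deviation of the 36 endothelial identity genes and of 15 marker lists from their mean over 5 grafts (log2, x axis), by list with the number measured (y axis), red for I/R (n = 3) and blue for non-I/R grafts (n = 2). The members and the other pan-endothelial genes lie near 0 in all grafts, neutrophil markers are higher and cardiomyocyte markers lower in I/R grafts, and platelet markers stand at 0.97 in I/R 2555.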

How the data were processed

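Gene expression was measured in 5 heart grafts, and groups were taken from the sample labels. The authors deposited log2 values of 35556 probe sets, made with Partek and RMA per the labels (no versions). The genome build of the files is not given in the sources used here. RMA had corrected the background and normalized the arrays, and the deposited log2 values were used without further scaling. A single gene symbol was listed for 21789 probe sets, several for 1621 and none for 12146. Symbols were updated through gene IDs with a table of GRCm38.p6, which held those of 21698 probe sets.

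A linear model was fitted to the 21789 probe sets with lmFit and eBayes of limma 3.58.1 (prior df 0.824, R 4.3.3), with Benjamini-Hochberg adjustment over all of them. Values tied between arrays occurred in 11715 probe sets, among them Calcrl and Cav1. A call means an unadjusted p under 0.05 (the study's threshold), and higher, lower or passed refers to it unless a mean or signal is named. Lists (9 of pathways, 15 of cell types) are given by counts and medians. Mean deviations are averages of log2 signal minus each gene's mean. The members and lists were chosen with earlier results of these data known. Members are given with all values if they passed, differed by 0.5 (log2) or were among the 3 with the largest SD in the I/R grafts (13 of 36), and at most 4 genes that passed are named in a list, with others to describe it. The steps were tested on simulated data. Alternatives were other scalings, weights, filters, eBayes settings, the methods' t-test and leaving out grafts. Plots used matplotlib 3.10.9 in Python 3.11.15, and statmod 1.5.0 was loaded.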

Additional observations from a re-analysis of the deposited data

How the results depend on the processing

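Of 574 fold changes of the 36 members under 16 alternatives, 507 kept their direction and side of the threshold, 31 lost the call, 18 gained it and 18 changed sign. The methods' t-test called 3 members higher, against 6 by limma. Centring arrays on their medians called 5 lower, against 3. Leaving out grafts 2555 and 2554 together, chosen after seeing the data, gave 3 higher, 0 lower and 0 at the 2-fold criterion. With 1 graft left out, 1 to 8 were higher, 3 to 4 were lower and 1 to 2 were lower at the 2-fold criterion. A lone remaining graft is assumed to vary like the other group. Leaving out grafts also lowers their number, and the cause of these shifts was not tested.

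No call changed sign. Changes of sign were in 7 members with fold changes near 0 (log2). Mmrn2 had -0.0080 with cyclic loess and -0.012 with array weights, and Stab1 -0.081 with array weights. Without grafts 2555 and 2554 Lmo2 had 0.085, Esam -0.041, Calcrl 0.047 and S1pr1 -0.052. With 1 graft left out Lmo2 ranged from -0.17 to 0.078, Esam from -0.015 to 0.20, Mmrn2 from -0.0098 to 0.067, Calcrl from -0.16 to 0.050, S1pr1 from -0.032 to 0.15, Adgrl4 from -0.15 to 0.094 and Stab1 from -0.30 to 0.40. The mean over a gene's probe sets equals its brightest for every member, since each had 1. No paired analysis was possible because the labels number no replicates, and the order of the grafts in each group pairs nothing. The number of arrays limits precision.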

Other observations

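Genes of the endocardium, the endothelium of the heart chambers, differed among grafts of one group. Npr3, a clearance receptor for natriuretic peptides, had log2 signals of 8.54, 6.57 and 7.87 in the I/R grafts (2553, 2555, 2557 in turn), against 9.79 and 8.16 in the non-I/R grafts (2554, then 2556), with 2554 highest and 2555 lowest. Cytl1 had 7.73, 6.77 and 7.48 in I/R grafts, against 9.21 and 8.01 in non-I/R grafts, a log2 fold change of -1.28 (SE 0.52, unadjusted p = 0.0706 by limma). Over 6 endocardial markers the mean deviations were 0.11, -0.53 and -0.14 for the I/R grafts and 0.66 and -0.11 for the non-I/R grafts.

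Graft 2554 was highest for other vessel and stroma genes too. Vwf, the carrier of a clotting factor, had 8.97, 8.60 and 8.54 in I/R grafts, against 9.77 and 8.73 in non-I/R grafts. Fibroblast markers had a mean deviation of 0.49 in 2554, against -0.25 to 0.015 in the other 4 grafts. In 2555 the platelet gene Gp9 had 9.43, against 6.81 and 7.46 in the other I/R grafts and 7.56 and 7.45 in non-I/R grafts.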
